A study of Danio rerio with 9 samples.

Results

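The genes described are 7 genes of carotenoid and retinoid metabolism in the larval zebrafish liver, among 32520 genes in the count table. They are bco1 (ENSDARG00000104256), bco1l (ENSDARG00000103659), bco2l (ENSDARG00000027620), rbp4 (ENSDARG00000101199), dhrs3a (ENSDARG00000044982), dhrs3b (ENSDARG00000044803) and cyp26a1 (ENSDARG00000033999). They were chosen by name, with the low level of bco2l at 10 mM already known, so every comparison that uses the 10 mM libraries is given for them as a description with no test. Of the 7, 6 passed the filter on low counts, and cyp26a1 did not. Poly(A) RNA was sequenced from the dissected livers of wild-type larvae, 3 libraries for each of the groups exposed over 24 h to vehicle alone, to metronidazole at 1 mM or to metronidazole at 10 mM. The compound is a nitroimidazole antibiotic that serves as the prodrug in nitroreductase cell ablation, and no transgene is named for these larvae. Neither the age of the larvae nor the number of livers in a library is stated.

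Vitamin A is made from dietary carotenoids. BCO1 cleaves beta-carotene at its centre into retinaldehyde, and in mice BCO2 is a mitochondrial enzyme that cleaves carotenoids off centre. Retinaldehyde is reduced to retinol, stored as retinyl ester in the stellate cells of the liver or sent into the plasma on the hepatocyte carrier RBP4, and retinaldehyde that is oxidised instead gives retinoic acid, the ligand of nuclear receptors, which CYP26 enzymes clear.

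Total counts ranged from 30 to 41.3 M per library. Levels are given as CPM, counts per 1 M counts of a library size scaled by TMM (a correction for composition), and CPM is not corrected for transcript length, so levels of different genes are not ranked against each other. Markers of hepatocytes were abundant, with the summed level of 10 markers between 148732 and 209271 CPM in every library. The livers also carried RNA of exocrine pancreas, whose 13 markers summed to between 8644 and 18526 CPM in vehicle, 6397 and 19047 CPM at 1 mM and 9996 and 20804 CPM at 10 mM. Each of the 8 markers of retina and pigment cells, another site of retinoid use, averaged less than 1 CPM. On the second principal component, which held 17.4% of the variance, 1 mM replicate 3 stood apart at -76.8, against -5.99 to 26.6 for the others. By its column name, 10 mM replicate 3 came from sequencing lane 8 and the others from lane 7.

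The gene bco2l, named as a BCO2-like carotenoid oxygenase, was at 19.9, 23.4 and 17.6 CPM in the vehicle libraries. At 1 mM it was at 18.5, 21.1 and 19.7 CPM, and at 10 mM at 3.26, 4.28 and 2.47 CPM. The vehicle and 1 mM libraries overlapped, while each 10 mM library lay far below the lowest of the other groups. The means were 20.3 ± 2.95, 19.8 ± 1.31 and 3.33 ± 0.909 CPM (SD, n = 3 each). The low level at 10 mM is the value for which the genes were chosen, with a log2 difference of -2.60 (SE 0.19) against vehicle, or 6.07-fold lower, and -2.56 (SE 0.19) against 1 mM. Among the 16766 genes tested, 50 had a lower log2 difference at 10 mM against vehicle, and among the 13033 with a mean of at least 1 CPM, 11 did. The 10 mM values rest on 76 to 159 counts in a library, against 706 to 901 in vehicle. In bulk liver, fewer cells that use a gene and less of its RNA per cell cannot be told apart. The sums of hepatocyte markers overlapped between those groups, at 157591 to 166757 CPM in vehicle and 149393 to 173638 CPM at 10 mM.

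The members were tested at 1 mM against vehicle only, a comparison that shares its vehicle libraries with the one behind the choice and whose earlier results were also known. No change of bco2l was detected there (log2 -0.04, SE 0.18, edgeR adjusted p = 0.968). The 95% interval of that difference ran from -0.42 to 0.35. Another gene named for BCO2, bco2b (ENSDARG00000041715), was too low to test, at 0.052 to 0.164 CPM in vehicle and 0.148 to 0.454 CPM at 10 mM. Those levels stand on 2 to 14 counts. The listed gene bco2a matched no row by name, so its level is not known here.

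**Figure D1:**
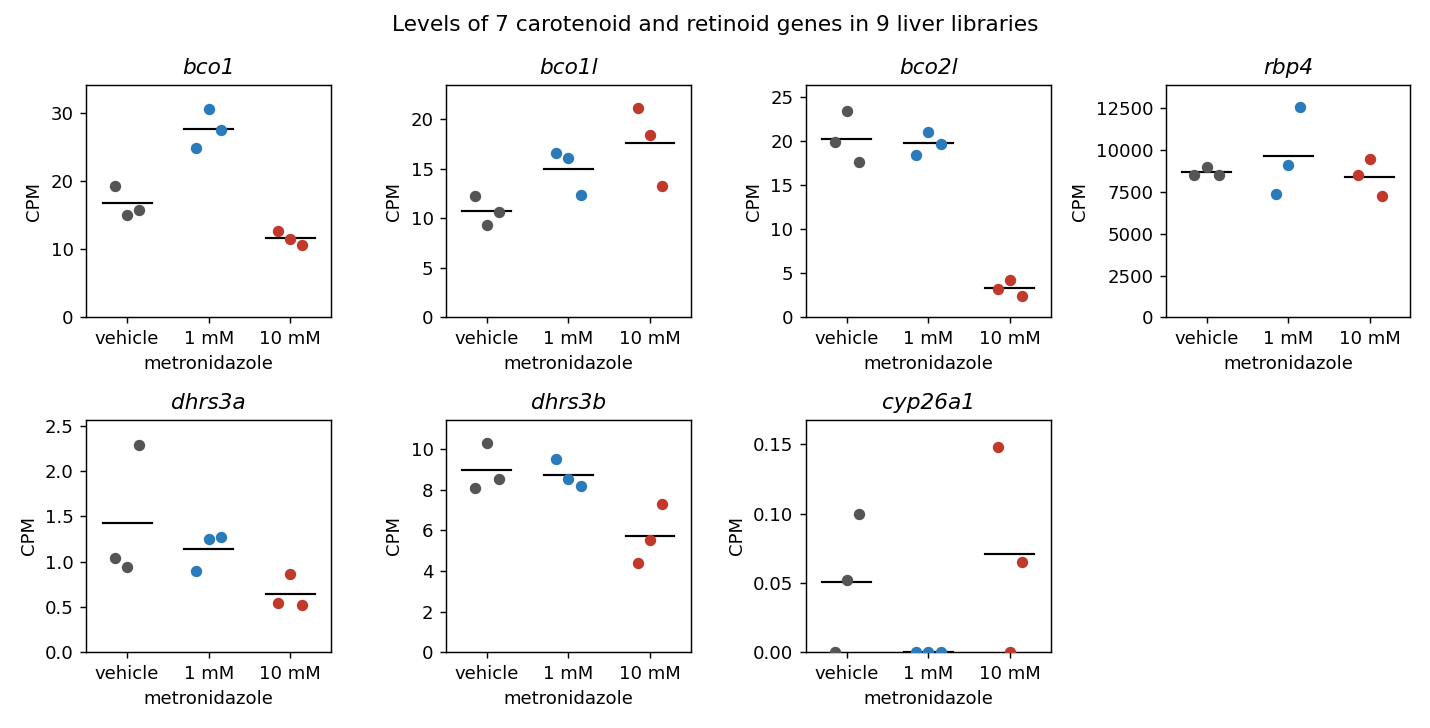
CPM of each of the 7 genes, with 1 point per library, 3 libraries each of vehicle, 1 mM and 10 mM metronidazole, and a black line at the group mean; each panel has its own vertical axis from 0. All 3 bco2l values at 10 mM lie between 2.47 and 4.28 CPM, bco1 is highest at 1 mM, and cyp26a1 stays below 0.15 CPM.

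The gene of the central cleavage enzyme, bco1, had its highest level at the lower dose. It was at 19.3, 15.1 and 15.8 CPM in vehicle, at 24.8, 30.6 and 27.5 CPM at 1 mM and at 12.7, 11.5 and 10.7 CPM at 10 mM. No library of any group overlapped another group, and the order was 1 mM, vehicle, 10 mM. At 1 mM bco1 rose 1.65-fold, from 16.7 ± 2.26 to 27.6 ± 2.88 CPM (SD, n = 3 each), a log2 change of 0.73 (SE 0.14, edgeR adjusted p = 0.0339, 95% interval 0.42 to 1.03). It was the 1 member of the 6 tested that passed at this dose, where 0.984% of all tested genes passed in either direction, 0.889% higher and 0.0954% lower. The call lies near the threshold. It was lost without vehicle replicate 1 (adjusted p = 0.07), 2 (0.195) or 3 (0.148), without 1 mM replicate 2 (0.114), without 10 mM replicate 2 (0.0504) and with only the 6 libraries of the 2 groups (0.0636). The direction was kept each time, with log2 changes of 0.65 to 0.84. At 10 mM the log2 difference of bco1 was -0.52 (SE 0.14) against vehicle and -1.25 (SE 0.14) against 1 mM, given without a test.

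The mean marker sum was highest at 1 mM in 6 of the 9 lists, though the libraries of that group differed among themselves. Its replicate 3 had the highest sums for hepatocytes, biliary cells and erythroid cells, so nothing is read from that order of means. The mean sums in vehicle, at 1 mM and at 10 mM were 161978, 169341 and 162339 CPM for hepatocytes, 1490, 1807 and 1792 CPM for biliary cells and 227, 229 and 218 CPM for endothelial cells. They were 1210, 1563 and 1257 CPM for erythroid cells and 41.4, 55.4 and 52 CPM for macrophages and neutrophils. In the last list mpx had means of 2.55, 14.3 and 4.03 CPM and marco 13.8, 16.2 and 23.1 CPM. Intestinal epithelium, exocrine pancreas, and retina and pigment cells were not among the 6 lists. For intestinal epithelium the mean sums were 3389, 3368 and 3124 CPM, and 7 of its 12 markers averaged less than 1 CPM. For exocrine pancreas they were 12780, 12950 and 13756 CPM, and for retina and pigment cells 0.291, 0.38 and 0.601 CPM. In 1 mM replicates 1, 2 and 3 the hepatocyte sums were 150020, 148732 and 209271 CPM. In the same order they were 1412, 1663 and 2346 CPM for biliary cells and 1065, 1231 and 2392 CPM for erythroid cells. Replicate 3 was the lowest of that group for endothelial cells (259, 252 and 175 CPM) and for macrophages and neutrophils (52.8, 76.2 and 37.1 CPM). Of all the markers, 81 of them matched, the erythroid gene hbae3, which encodes an alpha globin, was the 1 that passed at 1 mM (log2 1.17, edgeR adjusted p = 0.0257). At this dose 0.984% of all tested genes passed, so nothing about erythroid cells is read from that call. The other erythroid markers did not pass, with log2 differences from -0.01 (hbae1.1) to 0.67 (slc4a1a). For stellate cells, the store of retinyl esters, the 12 markers matched, of 13 listed, summed to 218 to 223 CPM in vehicle, 244 to 290 CPM at 1 mM and 184 to 249 CPM at 10 mM. The largest part came from steap4, a metalloreductase gene, with means of 125, 153 and 97.8 CPM, and lratb.2, desmb and vim averaged less than 1 CPM. The part of any of these cells in the bco1 values was not tested.

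The paralogue bco1l took another course. It was at 12.2, 9.34 and 10.6 CPM in vehicle, at 16.6, 16.1 and 12.3 CPM at 1 mM and at 21.1, 18.4 and 13.2 CPM at 10 mM. The lowest value at either dose lay just above the highest vehicle value, and the groups at the 2 doses overlapped. At 1 mM its log2 difference was 0.49 (SE 0.19, 95% interval 0.08 to 0.90), with an unadjusted p of 0.0222 and an edgeR adjusted p of 0.318, so it did not pass over all genes. At 10 mM it was 0.72 (SE 0.19) against vehicle and 0.23 (SE 0.19) against 1 mM. In the group at 10 mM the lowest value belonged to replicate 3, the library of lane 8, and without that library the log2 difference from vehicle was 0.89. Reads of similar stretches of bco1 and bco1l may be shared between the genes, since the handling of such reads is not given.

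Ratios of the 3 oxygenase genes within a library are given as a description with no test. The low level of bco2l at 10 mM was known when the genes were chosen, so nothing is read from its ratios at that dose. The ratio of bco2l to bco1 CPM was 1.03 to 1.56 in vehicle, 0.692 to 0.746 at 1 mM and 0.231 to 0.372 at 10 mM. The groups did not overlap. At 1 mM the mean of bco1 was higher than in vehicle while bco2l overlapped it, and at 10 mM the means of both were lower. The ratio of bco2l to bco1l was 1.64 to 2.51 in vehicle, 1.11 to 1.6 at 1 mM and 0.154 to 0.232 at 10 mM. The ratio of bco1l to bco1 was 0.62 to 0.671 in vehicle, 0.448 to 0.671 at 1 mM and 1.23 to 1.66 at 10 mM. Here vehicle and 1 mM overlapped and 10 mM lay above them. A ratio of 1 has no meaning of its own, because CPM carries the length of each transcript.

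**Figure D2:**
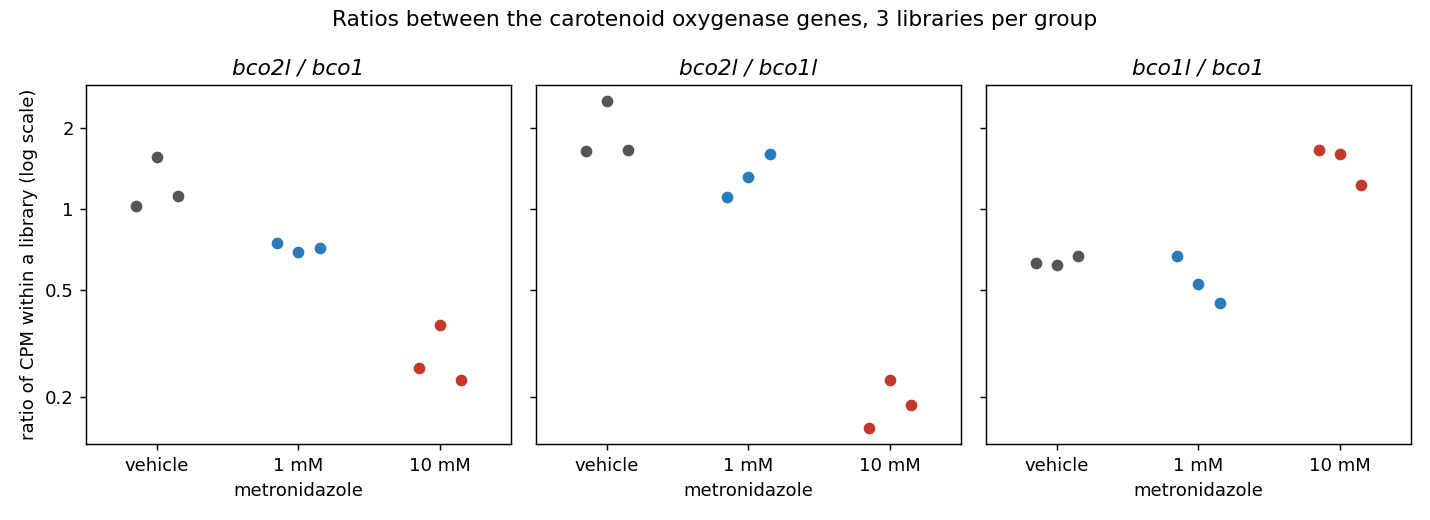
Ratio of CPM between pairs of carotenoid oxygenase genes within each library, on a log axis, with 1 point per library in vehicle, 1 mM and 10 mM metronidazole. The bco2l to bco1 ratio is 1.03 to 1.56, 0.692 to 0.746 and 0.231 to 0.372 in the 3 groups, where the low bco2l at 10 mM was known beforehand. The bco1l to bco1 ratio is higher at 10 mM than in the other 2 groups.

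The plasma retinol carrier gene rbp4 was among the most heavily counted of hepatocyte transcripts, holding 0.744% to 1.1% of all counts in a library. It was at 8496, 8975 and 8539 CPM in vehicle, at 7350, 9087 and 12599 CPM at 1 mM and at 8538, 9443 and 7240 CPM at 10 mM. All 3 groups overlapped. The spread at 1 mM was 27.6% of the mean, against 3.06% in vehicle, with replicate 1 below and replicates 2 and 3 above every vehicle library. Replicate 3, the highest, also had the highest hepatocyte marker sum, 209271 CPM against 148732 to 173638 CPM in the others, and the part of that in the rbp4 value was not tested. No change of rbp4 was detected at 1 mM (log2 0.16, SE 0.20, 95% interval -0.26 to 0.58, edgeR adjusted p = 0.822). Without 1 mM replicate 3 the log2 difference was -0.08. At 10 mM it was -0.04 (SE 0.20) against vehicle.

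The genes dhrs3a and dhrs3b encode short-chain dehydrogenases of the DHRS3 type, which in mice reduce retinaldehyde back to retinol and so hold down retinoic acid. The better measured dhrs3b was at 8.08, 10.3 and 8.52 CPM in vehicle, at 9.5, 8.52 and 8.19 CPM at 1 mM and at 4.39, 5.52 and 7.27 CPM at 10 mM. The 10 mM libraries lay below both other groups, with the lane 8 library nearest to them. The log2 difference at 10 mM was -0.65 (SE 0.19) against vehicle and -0.61 (SE 0.19) against 1 mM. No change was detected at 1 mM (log2 -0.03, SE 0.19, 95% interval -0.45 to 0.38, edgeR adjusted p = 0.973).

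The copy dhrs3a was low, at 1.04, 0.937 and 2.29 CPM in vehicle, 0.899, 1.25 and 1.27 CPM at 1 mM and 0.543, 0.861 and 0.519 CPM at 10 mM. Vehicle replicate 3 stood above all other libraries, and the 10 mM libraries lay just below the lowest of the others. The log2 difference at 10 mM was -1.15 (SE 0.43) against vehicle and became -0.62 without vehicle replicate 3. At 1 mM the interval was wide (log2 -0.33, SE 0.41, 95% interval -1.22 to 0.57, edgeR adjusted p = 0.828), and without vehicle replicate 3 the log2 difference was 0.20. At 34 to 92 counts per library in those groups a change of this size was not detectable.

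The gene of the retinoic acid hydroxylase cyp26a1, a direct target of retinoic acid receptors in many tissues, was near 0 throughout. It had 0, 2 and 4 counts in the vehicle libraries, 0 in each 1 mM library and 6, 0 and 2 counts at 10 mM. A limit of 3 counts corresponds to 0.074 to 0.0974 CPM in these libraries. It covers counting error only and is too low where both mates of a pair were counted. No fold is given, and differences of a few counts were not detectable at this depth.

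**Figure D3:**
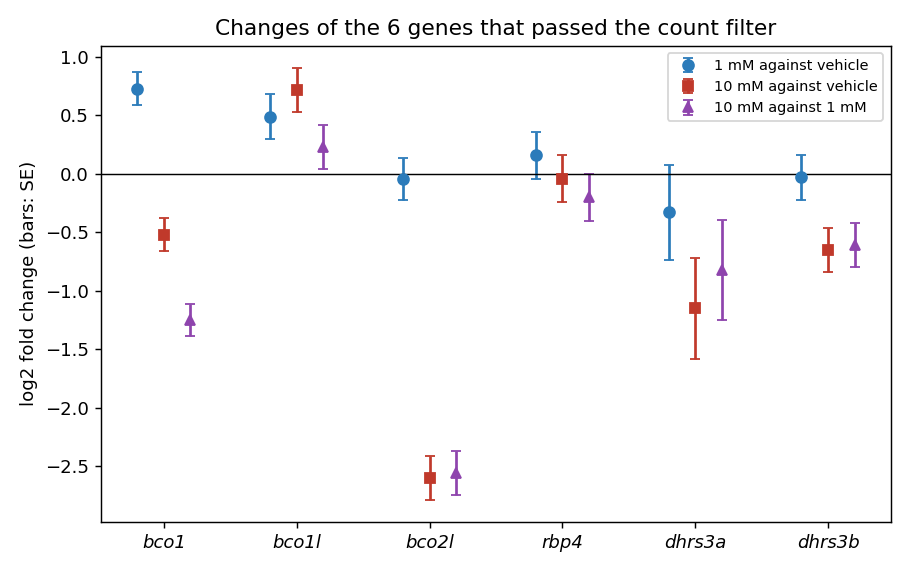
Log2 fold change of the 6 genes that passed the count filter in each of the 3 comparisons, with bars of 1 standard error from the edgeR fit. At 1 mM bco1 is the gene that passed (0.73), and at 10 mM bco2l lies at -2.60 against vehicle and -2.56 against 1 mM.

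Across the members, groups that did not overlap were counted in 2 of the 6 tested genes at 1 mM against vehicle, where 17.7% of all tested genes did not overlap. For 10 mM and vehicle the count was 5 of 6, the exception being rbp4, where the share over all tested genes was 40.6%. For 10 mM and 1 mM it was 4 of 6, with rbp4 and bco1l overlapping, against 33.7%. The comparisons at 10 mM share libraries with each other and with the choice of the genes, and nothing is read from their counts. Over the 9 libraries, the log2 CPM of bco2l had a Pearson r of 0.78 with bco1, 0.80 with dhrs3b, 0.73 with dhrs3a, 0.32 with rbp4 and -0.55 with bco1l. These describe libraries that share groups and depth.

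The genes whose profile over the 9 libraries was most like that of bco2l, by Pearson r of log2 CPM among 12657 other named genes of at least 1 CPM, were thrap3b, arhgef16, pdcd4a, kmo and si:dkey-36h5.1, each at r = 0.99. Of these kmo, the kynurenine monooxygenase gene, had means of 208, 203 and 153 CPM in vehicle, at 1 mM and at 10 mM, and thrap3b 83.6, 86.3 and 27.3 CPM. The most opposite profiles were those of rab1ba, maff, nufip2, klhl21 and DDHD2, each at r = -0.99. Here maff, a small Maf transcription factor gene, had means of 20, 22.1 and 73.6 CPM. Such profiles were common, since 495 genes reached r of 0.9 or more and 618 reached -0.9 or less. For rbp4 the most alike were mtch2, prrg4 and the apolipoprotein gene apoc1, each at r = 0.98, and the most opposite were ATG2A (-0.97), med12 and mef2d (both -0.96). Here 105 genes reached 0.9 or more and 85 reached -0.9 or less. The rbp4 profile leans on 1 mM replicate 3, its highest library at 12599 CPM, which also stood apart on the second principal component.

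Beyond the members, 69 other genes of the pathway were matched and 49 could be tested. Between vehicle and 10 mM, 4 rose and 7 fell, 22.4% of the 49, beside 17.2% of all genes tested (9.74% higher, 7.43% lower). The median log2 difference was -0.05, against -0.03 over all genes. Between 1 mM and 10 mM, a comparison that shares the 10 mM libraries, 5 rose and 9 fell, 28.6% beside 18.8% of all genes (9.39% higher, 9.41% lower). At 1 mM against vehicle 1 passed, 2.04% beside 0.984%. The count at 10 mM against vehicle was 7 without vehicle replicate 1, a setting for which the share over all genes was not computed.

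In the storage of retinol, lrata (ENSDARG00000037278), whose product forms retinyl esters, fell at 10 mM. It was at 9.94, 9.89 and 7.37 CPM in vehicle, 6.27, 8.26 and 5.84 CPM at 1 mM and 3.04, 5.81 and 3.44 CPM at 10 mM. The vehicle and 10 mM libraries did not overlap (log2 -1.14, SE 0.25, edgeR adjusted p = 0.00692), and the highest 10 mM value lay just under the lowest 1 mM value. LRAT is the esterifying enzyme of stellate cells in mammals. Of the 11 stellate markers tested, 1 rose and 1 fell at 10 mM against vehicle, where 17.2% of all tested genes passed. These were pdgfrb (log2 0.70, adjusted p = 0.0439) and desmb (log2 -3.01, adjusted p = 0.0146, at 0.767 CPM in vehicle and 0.0919 CPM at 10 mM). That 10 mM mean of desmb is near the level of 3 counts in a library, so the size of its fall is uncertain. Among the rest, steap4 (log2 -0.35), colec11 (-0.28) and acta2 (-0.02) had lower means. The means of hand2, col1a1a, col1a2, wt1b, ifitm1 and vim were higher (log2 0.12 to 0.70). None of the rest passed against vehicle. Against 1 mM, steap4 was lower (log2 -0.65, adjusted p = 0.00595). The part of stellate cells in the lrata values was not tested. The acyltransferase genes that can also esterify retinol went different ways. dgat1b (ENSDARG00000054914) rose at 10 mM from 17.4 to 30.6 CPM (log2 0.81, SE 0.16, adjusted p = 0.00422), while dgat1a (ENSDARG00000103503) was at 6.96 CPM there and 7.63 CPM in vehicle. At 1 mM dgat1a was the 1 pathway gene beyond the members that passed, at 12.9, 18.4 and 17.8 CPM against 9.56, 8.07 and 5.28 CPM in vehicle (2.15-fold, SE 0.22 on the log2 scale, adjusted p = 0.0393). Its call was lost without any library except 1 mM replicate 1 (adjusted p 0.0502 to 0.165). At 10 mM against 1 mM dgat1a fell (log2 -1.23, adjusted p = 0.00243). Lipoprotein lipase, lpl (ENSDARG00000087697), which frees fatty acids and retinyl esters from lipoproteins, had a mean of 1079 CPM at 10 mM against 631 CPM in vehicle, a rise that passed (log2 0.78, SE 0.17, adjusted p = 0.00604). The lipase gene lipea (ENSDARG00000063037) was higher at 10 mM than at 1 mM (7.73 and 4.7 CPM, log2 0.72, adjusted p = 0.0096). Its vehicle mean of 6.39 CPM lay between them, and neither dose passed against vehicle (log2 0.28, adjusted p = 0.288 at 10 mM and log2 -0.44, adjusted p = 0.303 at 1 mM).

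Genes that convert retinol and retinaldehyde changed in both directions at 10 mM, with 2 of 16 tested higher and 2 lower than in vehicle. That is 25% of the list beside 17.2% of all tested genes, so only the single genes are described. The retinol oxidising enzyme gene rdh10a (ENSDARG00000058730) was at 40.6, 37.8 and 42.3 CPM in vehicle and 24.1, 27.3 and 26.3 CPM at 10 mM (log2 -0.63, SE 0.12, edgeR adjusted p = 0.00308). Its paralogue rdh10b (ENSDARG00000012369) was at 9.71 to 15.7 CPM in vehicle and 15.8 to 17.6 CPM at 10 mM, a difference from vehicle that did not pass (log2 0.45, adjusted p = 0.132). Against 1 mM the copies differed in sign, with rdh10a lower (log2 -0.83, adjusted p = 0.000582) and rdh10b higher (log2 0.83, adjusted p = 0.00975). The gene rdh8a (ENSDARG00000028048), whose mammalian counterpart is known from photoreceptors, fell from 8.87 to 10.5 CPM in the vehicle libraries to 3.38 to 5.2 CPM at 10 mM (log2 -1.22, SE 0.23, adjusted p = 0.0026). It was at 22.1, 11.9 and 16.2 CPM at 1 mM, a difference from vehicle that did not pass (log2 0.77, adjusted p = 0.146). The retinaldehyde reductase gene rdh12 (ENSDARG00000018069) rose at 10 mM, from 31.7 to 39.1 CPM in the vehicle libraries to 51.7 to 66.2 CPM (log2 0.69, SE 0.14, adjusted p = 0.00536). The related rdh12l (ENSDARG00000045277) was also higher (log2 0.86, SE 0.26, adjusted p = 0.0356), a call that leaving out vehicle replicate 1, 2 or 3 ended (0.0708 to 0.141), as did leaving out replicate 1 (0.118) or 3 (0.0915) of the 10 mM group.

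In the carriage of retinol, transthyretin, ttr (ENSDARG00000037191), the plasma partner of RBP4, was at 162, 168 and 206 CPM in vehicle, 198, 248 and 268 CPM at 1 mM and 169, 171 and 159 CPM at 10 mM. It was lower at 10 mM than at 1 mM (log2 -0.52, SE 0.15, edgeR adjusted p = 0.0264), a call lost without 1 mM replicate 2 or any 10 mM library (adjusted p 0.0676 to 0.0897). The liver RBP4 receptor gene stra6l (ENSDARG00000062467), known in zebrafish as rbpr2, was at 34.1 to 38.2 CPM in vehicle, 44.3 to 51.4 CPM at 1 mM and 35.2 to 37.9 CPM at 10 mM. It did not pass against vehicle at 1 mM (log2 0.36, adjusted p = 0.203). An intracellular retinol binding gene, rbp5 (ENSDARG00000101481), was at 38.8 to 42.7 CPM in vehicle, 49 to 58.6 CPM at 1 mM and 30.4 to 32.3 CPM at 10 mM, so that the groups did not overlap. It was lower at 10 mM than at 1 mM (log2 -0.75, SE 0.12, adjusted p = 0.000836) and than in vehicle (log2 -0.39, SE 0.12, adjusted p = 0.0356). The call against vehicle ended when a single vehicle library, a single 10 mM library or replicate 2 of 1 mM was left out (adjusted p 0.0538 to 0.125). Of the 6 intracellular binding genes tested, 1 passed at 10 mM against vehicle, 16.7% beside 17.2% of all tested genes. Among those that did not, rbp2a, also listed as a marker of intestinal epithelium, had means of 622 CPM in vehicle and 526 CPM at 10 mM (adjusted p = 0.68). For rbp2b they were 478 and 497 CPM (adjusted p = 0.894). Each of ttr, stra6l and rbp5 had its highest mean at 1 mM. At 1 mM against vehicle ttr (log2 0.41, adjusted p = 0.26) and rbp5 (log2 0.36, adjusted p = 0.196) did not pass either. Since ttr and stra6l were named after their values were seen, nothing is read from that order of means.

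For retinoic acid itself, the synthesis gene aldh1a2 was low (2.82 to 5.13 CPM in vehicle, 3.18 to 5.25 CPM at 10 mM), and aldh8a1 (ENSDARG00000036776), whose mammalian product also acts on kynurenine breakdown, was lower at 10 mM than at 1 mM (53.9 and 75.8 CPM, log2 -0.49, SE 0.12, edgeR adjusted p = 0.012). The vehicle mean of aldh8a1 was 56.1 CPM, and the difference of 10 mM from vehicle did not pass (log2 -0.06, adjusted p = 0.798). The clearance gene cyp26b1 (ENSDARG00000077121), the listed CYP26 gene that passed the count filter, fell at 10 mM. It was at 2.68, 1.12 and 1.22 CPM in vehicle, 1.75, 2.83 and 1.75 CPM at 1 mM and 0.888, 0.296 and 0.389 CPM at 10 mM. The 10 mM libraries lay below all others (log2 -1.65 against vehicle, SE 0.48, adjusted p = 0.0321). Those levels rest on 11 to 36 counts in a library at 10 mM and 43 to 98 in vehicle. The call was lost without vehicle replicate 1 (0.166), 10 mM replicate 2 (0.112) or 10 mM replicate 3 (0.108). Of the 9 receptor genes tested, 2 fell at 10 mM (22.2%, beside 17.2% of all tested genes), both of the RXR group that pairs with retinoic acid receptors. rxrgb (ENSDARG00000004697) was at 16.4 to 19.6 CPM in vehicle and 9.62 to 12.6 CPM at 10 mM (log2 -0.73, SE 0.14, adjusted p = 0.00381). rxrab (ENSDARG00000035127) was at 2.3 to 2.76 CPM and 0.913 to 1.69 CPM (log2 -1.12, SE 0.31, adjusted p = 0.0263), a call that ended when a vehicle library was left out, whichever it was, or replicate 1 or 2 of the 10 mM group (0.0521 to 0.11). The receptor gene rxraa did not pass (30.3 and 22.7 CPM, log2 -0.42, adjusted p = 0.0864), and neither did the retinoic acid receptor gene rarab (8.71 and 7.44 CPM, log2 -0.23, adjusted p = 0.38). The other receptor genes tested did not pass either, with log2 differences of 0.19 (raraa), -0.02 (rarga), -0.05 (rxrba), -0.14 (rxrbb) and -0.40 (rxrga).

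**Figure D4:**
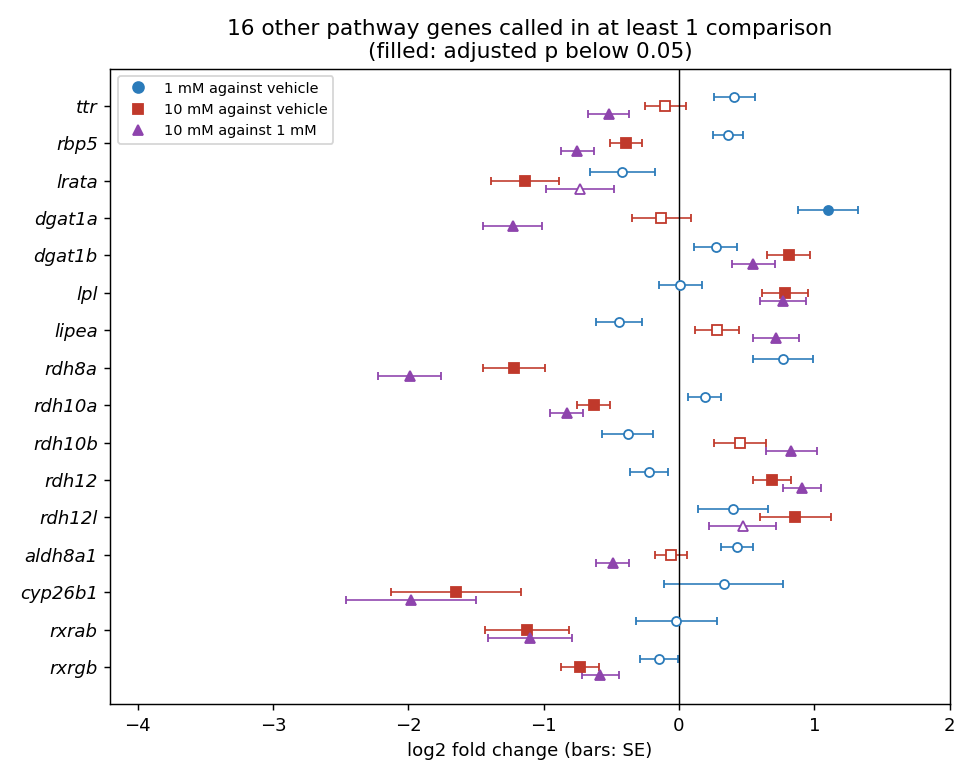
Log2 fold change, with bars of 1 standard error, of the 16 pathway genes beyond the members that passed in at least 1 of 3 comparisons, ordered by role from plasma carriage to receptors; filled symbols have an edgeR adjusted p below 0.05. At 10 mM against vehicle 4 of the filled genes are higher and 7 lower, and at 1 mM against vehicle only dgat1a is filled.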

How the data were processed

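The submitters' processing notes name HISAT2, featureCounts and GRCz11, and the file headers name HISAT alignments. For versions, annotation release, strand setting and the handling of reads with several positions, the sources used here give nothing. The authors deposited 1 table of raw counts, with a row per gene. Counts from 1 to 20 were even in 75.2% to 82.9% of cases per library, as when both mates of a pair are counted.

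Genes passed filterByExpr (minimum count 10, minimum total 15), which left 16766. All 9 libraries entered 1 fit, with a group mean each, in edgeR 4.0.16 (R 4.3.3), TMM factors and the two-sided quasi-likelihood test, with Benjamini-Hochberg adjustment over all tested genes and a threshold of 0.05. A standard error is the log2 change over the square root of F. Profiles used log2 CPM with a prior count of 2. The scripts were tested on simulated data.

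Whether replicates were separate animals or pools is not stated, so p-values measure only the spread between these libraries. Of 85 pathway genes in 8 lists by role, 76 matched by deposited name or, where that was missing, by a reference table of gene IDs, as did 81 of 86 markers in 9 lists. The members and lists were chosen with earlier results of these data known. Pathway genes were named if past the threshold in any comparison, up to the 12 with the smallest p at 10 mM against vehicle. The genes lipea, ttr, dgat1a, aldh8a1, bco2b, stra6l, aldh1a2, rxraa, rarab, rbp2a and rbp2b were named after their values were seen. So were raraa, rarga, rxrba, rxrbb and rxrga. So was each cell type marker named on its own, among them pdgfrb, desmb, steap4, colec11, hbae3 and slc4a1a. Alternatives were DESeq2 1.42.0 (its size factors and its test), other filters, only the groups compared, a replicate block, halved counts, abundant genes left out and each library left out.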

Additional observations from a re-analysis of the deposited data

How the results depend on the processing

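Up to 17 alternatives were run for each log2 difference, and 16 for rbp4, which is among the 20 most abundant genes, and for dhrs3a, cyp26b1, rdh12l and rxrab, which did not reach 5 CPM in 3 libraries. At 10 mM against vehicle bco2l ran from -2.80 to -2.43, bco1 from -0.59 to -0.41, bco1l from 0.57 to 0.89, dhrs3b from -0.85 to -0.49 and dhrs3a from -1.40 to -0.62, while rbp4 crossed 0 (-0.12 to 0.05). At 1 mM bco2l, rbp4, dhrs3a and dhrs3b, none past the threshold, crossed 0 when a library was left out. The 1 call among members, bco1 at 1 mM, became 0 with only the groups compared (log2 0.72, adjusted p = 0.0636) and with the replicate number as a block (log2 0.73, adjusted p = 0.0694), and with each library left out it gave 0 to 1 calls (log2 0.65 to 0.84). Its adjusted p ran from 0.000831, with the DESeq2 test, to 0.195. The count of other pathway genes at 1 mM was 3 with the DESeq2 test, 2 with no count filter, 0 with only the groups compared, 0 with the replicate block, and 0 to 1 with a library left out. At 10 mM against vehicle it ran from 7 to 15 with a library left out, was 16 with only the groups compared and 8 with the block. At 10 mM against 1 mM it ran from 10 to 17 with a library left out. The share of all tested genes that passed was not computed for the alternatives, so nothing about the pathway is read from these counts. Deviations of same-numbered libraries had correlations of -0.11 to 0.06, so no effect shared by number was seen. With 3 libraries per group this cannot settle whether same-numbered libraries were paired, which the labels do not state. For the 16 named pathway genes, 58 values under an alternative lost a call and 9 gained one, with the direction kept. No alternative moved the median log2 difference of all genes by more than 0.04. Depth limits cyp26a1, bco2b, dhrs3a and cyp26b1.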
